A study of Drosophila melanogaster with 5 samples.

Results

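Heat shock proteins and chaperonins are the folding machinery of the cell. Members of the Hsp70 family hold and release unfolded protein with the help of J-domain proteins and nucleotide exchange factors, Hsp90, which is Hsp83 in Drosophila, matures signaling proteins, and small heat shock proteins bind unfolded protein without ATP. The cytosolic chaperonin CCT is a pair of stacked rings in which actin and tubulin are folded, and Hsp60 forms a similar chamber in mitochondria. Some of these genes are induced by heat through the factor Hsf, while the cognate genes (Hsc70) and the CCT genes are expressed constitutively. In flies several small heat shock genes are also switched on by ecdysone near metamorphosis.

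The genes described here are all those in the deposited count table whose FlyBase symbol starts with Hsp or Hsc and a digit, or with CCT and a digit. There were 33 of them among 17807 genes. They comprise 6 small heat shock genes, 4 Hsp60 genes, 7 heat-inducible Hsp70 genes (Hsp68 and 6 copies of Hsp70), 6 cognate Hsp70 genes counting Hsp110, Hsp83, 8 CCT genes and Hsc20. The letters of the name bring in Hsc20, a J-domain protein of iron-sulfur cluster assembly, which belongs to none of the families and is described apart.

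RNA came from the hemolymph of Cg-Gal4>UAS-abd-A larvae, in which the Hox gene abd-A is overexpressed (3 libraries), and of Cg-Gal4>CS larvae, where CS is the wild-type strain Canton-S (2 libraries). Both genotypes carry the Cg-Gal4 driver, which is active in fat body as well as in blood cells, and both were kept at 25 °C. Eggs were laid over 6 h in all experiments. The age given is 96 to 102 h after egg laying, stated for larvae that were screened and stained. No separate age is stated for the larvae used for RNA. Each library was made from the hemolymph of 20 larvae. Counts were scaled by the trimmed mean of M-values (TMM) and tested over the whole table with edgeR's quasi-likelihood F-test. Levels are given in TMM-normalized CPM, counts scaled to a common library size, and changes as log2FC, the base-2 logarithm of abd-A over control, with its standard error (SE). To be called, a gene needed to change at least 2-fold with p below 0.05 after Benjamini-Hochberg adjustment.

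The abd-A libraries held 3848911 to 4959111 counts and the control libraries 1252969 and 2567624. The chaperone genes took 56886 to 74939 counts in the abd-A libraries, against 11429 in control replicate 1 and 26846 in control replicate 2. The overexpressed gene abd-A itself was counted 620, 474 and 638 times with abd-A overexpression and 0 and 21 times in the controls. Hemolymph identity was checked by markers. All 9 lamellocyte markers were called higher in abd-A, with a summed level of 19512 to 22642 CPM against 1253 and 1704 CPM in the controls, while 6 of 8 plasmatocyte and 4 of 4 crystal cell markers were called lower. RNA of other tissues differed too, in both directions. The 4 midgut markers summed to 80.5 to 135 CPM with abd-A, against 1.37 and 13.6 CPM in the controls. Of these, 2 were called higher. The 6 fat body markers summed to 24.5 to 135 CPM in the abd-A libraries and to 2414 and 20326 CPM in control replicates 1 and 2, and all 6 were called lower (5 without control replicate 2). The 8 muscle markers summed to 388 to 531 CPM in abd-A, against 1541 and 3209 CPM in the controls, again with all 8 lower (6 without control replicate 2). For 1 gene alone, exact permutation of 2 and 3 libraries gives p = 0.1 at the lowest, so the calls rest on the fit over all genes.

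Of the 33 genes, 32 had at least 10 counts in sum and were tested. In the abd-A libraries 12 were called higher and 3 lower, that is 15 in either direction, where 11.0% of all 11624 genes tested were called higher, 12.7% lower and 23.7% in either direction. The higher genes were all 8 CCT genes, Hsp60A, Hsc70-3, Hsc70-5 and Hsp110. The lower genes were Hsp67Ba, Hsp60C and Hsp70Ab. The CCT genes had a median log2FC of 2.05, the cognate Hsp70 genes of 0.88, the heat-inducible Hsp70 genes of -0.43 and the small heat shock genes of -0.72, beside a median of -0.17 over all genes tested. Levels in the abd-A and control libraries did not overlap for 15 members that were higher and 7 that were lower, where this held for 27.3% and 29.3% of all genes tested, or 56.6% together. In these bulk samples a change in the share of a cell type and a change in RNA per cell cannot be told apart.

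**Figure D1:**
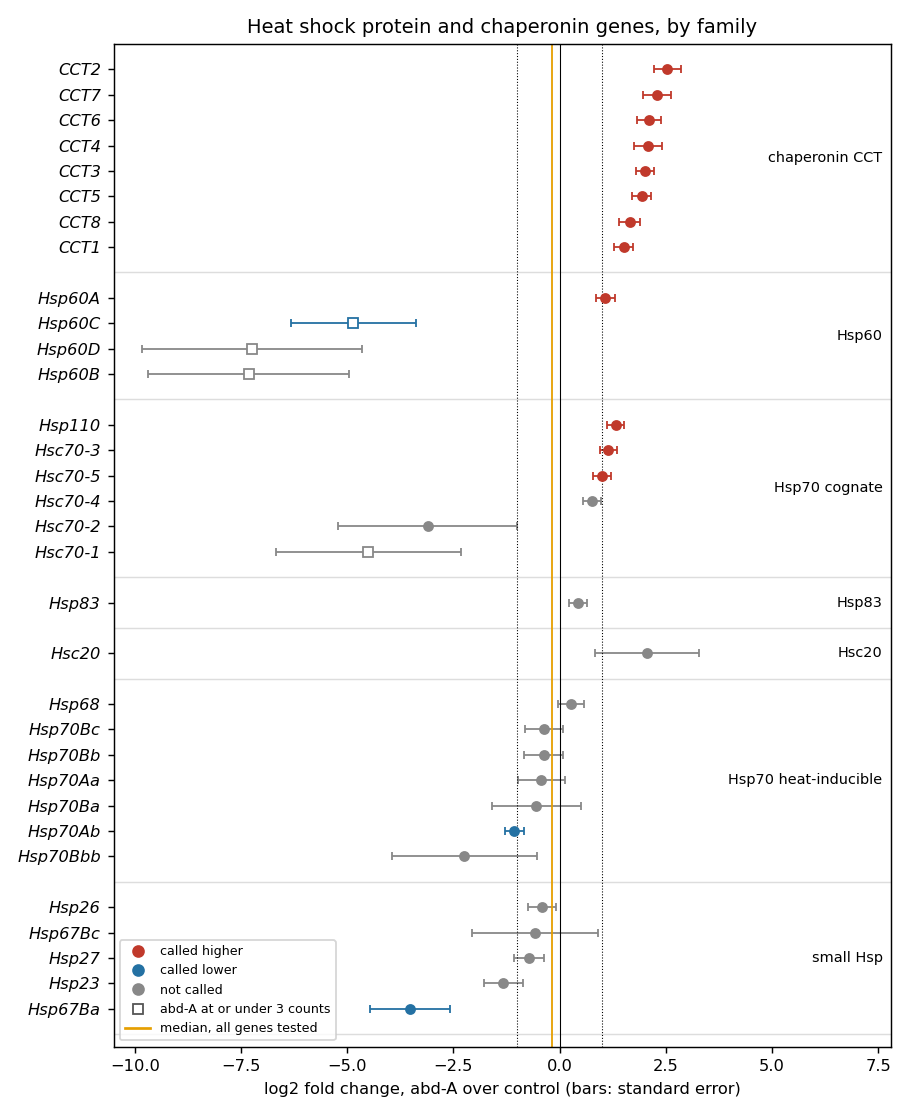
Fitted log2FC (x axis, abd-A over control) of each of the 32 tested genes, grouped by family, with SE as bars, dotted lines at 2-fold and an orange line at the median of all genes tested (-0.17). All 8 CCT genes lie to the right of the 2-fold line, and the small and heat-inducible genes lie near or left of 0. Open squares mark 4 genes with at most 3 counts in every abd-A library, whose fitted value is not a bound.

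Among the families, CCT had the highest share of called genes, 8 of 8. Its subunits are encoded by separate genes on chromosomes X, 2L, 2R and 3R. CCT5 had the highest level per kilobase of exon in each of the 5 libraries. It stood at 698.7, 605.6 and 664 CPM in the abd-A libraries and at 179.98 and 165 CPM in the controls, a log2FC of 1.93 (SE 0.21; edgeR quasi-likelihood, Benjamini-Hochberg adjusted p = 0.000296). The lowest abd-A library of CCT5 was thus above the higher control by more than the whole range of either group. CCT3 behaved alike, with 649.95, 574 and 609 CPM in the abd-A libraries against 152 and 150.1 CPM in the controls, a log2FC of 2.02 (SE 0.21). CCT1 showed the smallest change of the family. Its libraries had 382, 369 and 419.7 CPM with abd-A and 157 and 119 CPM in the controls, a log2FC of 1.50 (SE 0.23; edgeR, Benjamini-Hochberg adjusted p = 0.00145).

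The largest change in CCT was that of CCT2, with 568, 541 and 582 CPM in the abd-A libraries and 61.8 and 131 CPM in the controls. Its log2FC was 2.53 (SE 0.32; edgeR quasi-likelihood with Benjamini-Hochberg, adjusted p = 0.000651), or 5.79-fold. The controls differed from each other here, and the log2FC was 2.10 without control replicate 1 and 3.18 without control replicate 2. CCT7 had 513, 487 and 497 CPM with abd-A and 61.8 and 139 CPM in the controls, and its log2FC was 2.30 (SE 0.33), or 1.84 without control replicate 1 and 3.01 without control replicate 2. CCT6 had 419, 414 and 464 CPM with abd-A, against 70.8 and 128 CPM in the controls (log2FC 2.11, SE 0.28). The abd-A libraries of each of these genes lay close together and far above both controls. CCT4 had 325, 308 and 355 CPM with abd-A and 48.1 and 106 CPM in the controls (log2FC 2.07, SE 0.33). Its log2FC was 1.63 without control replicate 1 and 2.77 without control replicate 2. CCT8 had 345, 284 and 349 CPM with abd-A and 85.2 and 121 CPM in the controls (log2FC 1.65, SE 0.25).

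**Figure D2:**
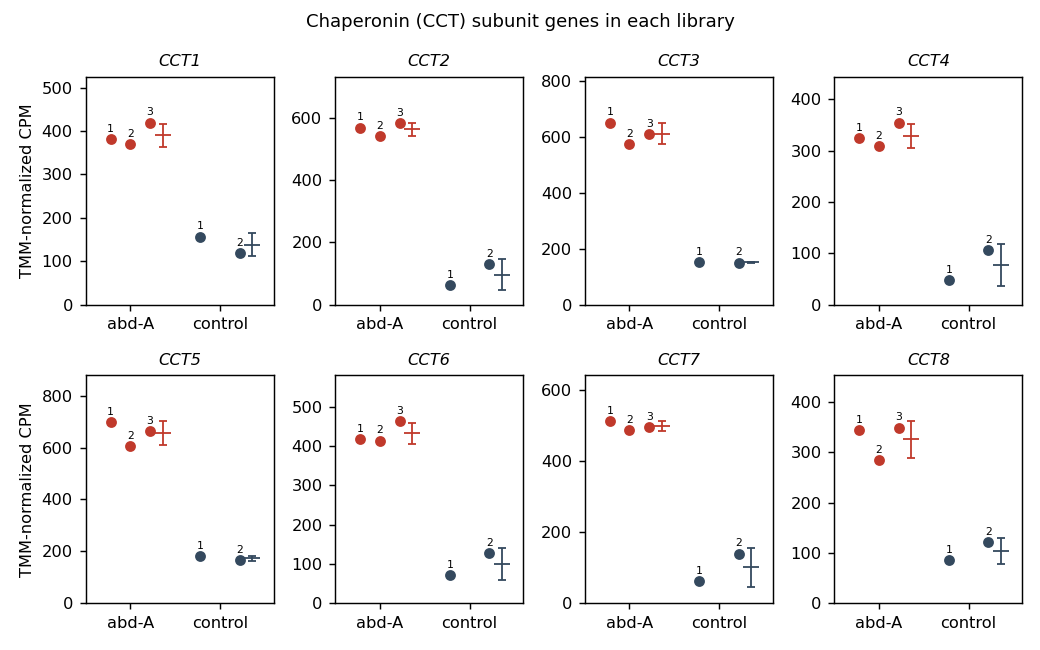
TMM-normalized CPM (y axis, from 0) of the 8 CCT subunit genes in each abd-A library (left) and control library (right), with replicate numbers beside the points and the mean and SD beside each group. No abd-A library overlaps a control, and CCT2, CCT4, CCT6 and CCT7 are about 2-fold higher in control replicate 2 than in control replicate 1 (ratios 2.12, 2.21, 1.81 and 2.25).

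Summed over its subunits, CCT amounted to 3808 ± 195 CPM in the abd-A libraries (SD, n = 3) and 938 ± 173 CPM in the controls (SD, n = 2), a ratio of 4.06. The subunits stand in equal number in the assembled ring, and their transcripts were compared per kilobase of exon within each library. The highest subunit was 2.08, 2.05 and 1.83 times the lowest in the abd-A libraries, and 3.62 and 1.50 times in the controls. CCT4 or CCT8 was the lowest in every library. The 8 genes were called higher in each alternative run, including each library left out in turn. EndoG overlaps 87 exonic bases of CCT5 and CG9839 overlaps 10 of CCT7 on the opposite strand. The other 6 CCT genes have no such overlap. The lamellocyte markers and the CCT genes were both higher with abd-A, and the part of lamellocytes in the rise of CCT was not tested.

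Prefoldin is a complex that hands unfolded actin and tubulin to CCT. Of 8 genes of prefoldin subunits and other CCT helpers, 7 were called higher, where 11.0% of all genes tested were called higher. The median log2FC of the 8 genes was 2.22, and 6 to 7 were called higher with 1 abd-A library left out. This list, like the other gene lists, was chosen with earlier results of these data known. Pfdn1 stood at 174 ± 21.6 CPM with abd-A (SD, n = 3) and 18.9 ± 7.29 CPM in the controls (SD, n = 2), a log2FC of 3.17 (SE 0.32), and Pfdn4, Pfdn6 and mgr had log2FC values of 3.20, 2.48 and 2.54. That of Pfdn4 was 2.51 without control replicate 1 and 5.22 without control replicate 2. The phosducin-like gene viaf, whose relatives assist CCT in yeast, had 1.43. Only uri of the 8 genes was not called, at 0.12 (SE 0.38). Actin and tubulin are the main substrates of CCT. Of 6 of their genes listed, 4 were called higher, where 11.0% of all genes tested were called higher. They were Act5C (log2FC 2.36), Act42A (2.28), alphaTub84B (2.46) and betaTub56D (1.43), whereas alphaTub84D had 0.27 and gammaTub23C had 0.06. The list does not hold all actin and tubulin genes. Another tubulin gene, betaTub85D, was measured as a testis marker and called lower. It had 0, 1 and 3 counts with abd-A and 38 and 44 in the controls.

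The constitutive chaperones of the cytosol were abundant in both genotypes. Hsc70-4, the main cytosolic Hsp70 and a clathrin uncoating factor, was measured at 3908, 3586 and 3803 CPM in the abd-A libraries, against 2097 and 2357 CPM in the controls. Ranked by level per kilobase among all genes tested, it was number 55 with abd-A and number 60 in the controls. Its groups did not overlap, and its log2FC of 0.76 (SE 0.21; edgeR, Benjamini-Hochberg adjusted p = 0.0257) passed the test but not the 2-fold threshold. Hsp83 stood at 3233, 3177 and 3175 CPM with abd-A and at 2143 and 2590 CPM in the controls. These values did not overlap either, and the log2FC was 0.43 (SE 0.21; edgeR, Benjamini-Hochberg adjusted p = 0.147). CG14966 overlaps 15 exonic bases of Hsp83 on the opposite strand.

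Hsp110, an Hsp70 relative that serves as the nucleotide exchange factor of Hsc70-4, was the cognate gene with the largest rise. It had 546, 536 and 549.7 CPM in the abd-A libraries and 210.2 and 227 CPM in the controls, a log2FC of 1.32 (SE 0.20; edgeR quasi-likelihood, Benjamini-Hochberg adjusted p = 0.00166). Per kilobase, Hsc70-4 was 9.88, 9.23 and 9.56 times as abundant as Hsp110 with abd-A and 13.8 and 14.4 times in the controls. The ratio was therefore lower in each abd-A library than in either control. Leaving out any 1 library kept the log2FC of Hsp110 between 1.26 and 1.37.

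In the endoplasmic reticulum the Hsp70 is Hsc70-3, the fly BiP. It had 2634, 2726 and 2725 CPM in the abd-A libraries and 1134 and 1299.9 CPM in the controls, values that lie far apart. The log2FC was 1.15 (SE 0.21; edgeR, Benjamini-Hochberg adjusted p = 0.00384). It is close to the 2-fold threshold, and with DESeq2's size factors it was 0.998, so that the call was lost while the adjusted p was 0.00539. Of 12 other genes of folding in the endoplasmic reticulum, 6 were called higher, where 11.0% of all genes tested were called higher. Their median log2FC was 0.94, and 4 to 6 were called higher with 1 abd-A library left out. Gp93, the Hsp90 of this compartment, stood at 1558 ± 60.1 CPM with abd-A (SD, n = 3) and 368 ± 11.5 CPM in the controls (SD, n = 2), a log2FC of 2.08 (SE 0.21). The lectin chaperone gene Calr had 1.59, the exchange factor gene Grp170 had 1.40, and the stress-response transcription factor gene Xbp1 had 1.03, a call lost without control replicate 1 (0.93) and without abd-A replicate 1 (0.97). The sensor genes Ire1 and Atf6 were not called, with log2FC values of -0.21 (SE 0.30) and 0.48 (SE 0.25).

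Mitochondria use Hsc70-5 as their Hsp70 and Hsp60A as their chaperonin. Hsc70-5 had 309, 305 and 344 CPM with abd-A and 179.98 and 139.6 CPM in the controls, a log2FC of 1.00 (SE 0.22; edgeR, Benjamini-Hochberg adjusted p = 0.00966). Hsp60A had 319, 284 and 264 CPM with abd-A and 157 and 118 CPM in the controls, a log2FC of 1.08 (SE 0.23; edgeR with Benjamini-Hochberg, adjusted p = 0.00847). For both genes every abd-A library lay above both controls. The changes are at the 2-fold threshold, and both calls were lost with library totals as scaling, where the log2FC values of Hsc70-5 and Hsp60A were 0.80 and 0.87. Without control replicate 2 they were 0.82 and 0.88, and without abd-A replicate 1 the adjusted p became 0.0573 and 0.0641 (edgeR, Benjamini-Hochberg). Hsc70-5 was also not called without abd-A replicate 3 (0.0637). The level of Hsp60A per kilobase was 1.22, 1.10 and 0.906 times that of Hsc70-5 in the abd-A libraries and 1.03 and 0.995 times in the controls.

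The mitochondrial partners gave calls in both directions, where 11.0% of all genes tested were called higher and 12.7% lower. Of 7 genes 4 were called higher, Trap1 (the mitochondrial Hsp90, log2FC 1.55), Roe1 (the GrpE exchange factor, 1.30), CG11267 (Hsp10, the lid of Hsp60, 1.20) and the unfoldase gene ClpX (1.16). With any 1 abd-A library left out 2 of the 7 were called higher, Roe1 and CG11267 being lost, and CG11267 was also lost without control replicate 2 (log2FC 0.79). The protease gene Lon was called lower, with 360.02 ± 30.1 CPM with abd-A (SD, n = 3), against 1229.6 ± 602 CPM in the controls (SD, n = 2), a log2FC of -1.77 (SE 0.29), or -1.16 without control replicate 1. Hsc20, which acts in mitochondria as well, had 34, 26 and 56 counts with abd-A and 0 and 10 counts in the controls, and shares 26 exonic bases with l(3)72Dp on the same strand. Its log2FC of 2.05 (SE 1.22) was not called in edgeR, with a Benjamini-Hochberg adjusted p of 0.237. All 3 abd-A libraries lay above both controls, and Hsc20 was called higher without control replicate 2 (adjusted p 0.00931 in edgeR with Benjamini-Hochberg), when the control left has 0 counts.

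**Figure D3:**
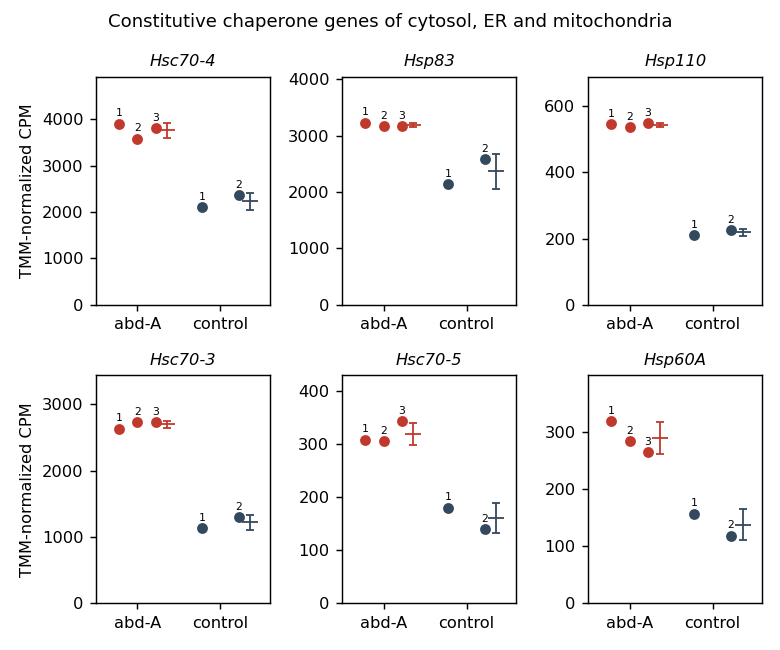
TMM-normalized CPM (y axis, from 0) of the cytosolic genes Hsc70-4, Hsp83 and Hsp110, the endoplasmic reticulum gene Hsc70-3 and the mitochondrial genes Hsc70-5 and Hsp60A, in each abd-A library (left) and control library (right), with mean and SD. The groups are apart in all 6 genes, and the ratio of the means was 2.49 for Hsp110 and 1.35 for Hsp83.

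Other members of the Hsp60 and cognate Hsp70 families were scarce. Hsp60B, a paralog required in the male germline, had 0 counts in each abd-A library and 15 and 4 in the controls. With 3 counts per library taken as the floor, the bound from the control mean is 8.36-fold lower. Against control replicate 1 alone the bound of Hsp60B is 14.5-fold and against control replicate 2 alone 2.19-fold. It was not called in edgeR, with a Benjamini-Hochberg adjusted p of 0.058. Hsp60C had 1, 1 and 2 counts with abd-A and 26 and 6 in the controls (edgeR, Benjamini-Hochberg adjusted p = 0.0381). Its bound from the control mean is 14.2-fold lower. The bound of Hsp60C also rests on control replicate 1, being 25.2-fold against it alone and 3.28-fold against control replicate 2 alone. Hsp60D had 0 counts with abd-A and 0 and 28 in the controls, so that its difference rests on control replicate 2. The call of Hsp60C was lost when any 1 abd-A library was left out (adjusted p 0.0999 to 0.121 in edgeR with Benjamini-Hochberg) and without control replicate 1 (0.39), and Hsp60B was called without control replicate 2 (0.0134). Of 12 testis markers, 8 were tested and 3 called lower (2 to 4 with 1 library left out), and they summed to 3.8 to 4.47 CPM with abd-A and to 102 and 50.04 CPM in control replicates 1 and 2. For 8 of the 12 genes the abd-A libraries held 0 counts. Their part in the values of Hsp60B and Hsp60C was not tested.

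Hsc70-1 and Hsc70-2 were near the floor as well. Hsc70-1 had 1, 0 and 0 counts with abd-A and 4 and 6 in the controls. Its bound from the control mean is 3.58-fold lower. Against control replicate 1 alone the bound of Hsc70-1 is 3.88-fold and against control replicate 2 alone 3.28-fold. Hsc70-2 had 5, 0 and 0 counts with abd-A and 7 and 6 in the controls. Neither was called, with adjusted p of 0.149 and 0.3 (edgeR quasi-likelihood, Benjamini-Hochberg). At a floor of 0.638 to 0.817 CPM in the abd-A libraries and of 2.06 and 1.16 CPM in the controls, differences at these levels are at the limit of detection.

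Of the 7 heat-inducible Hsp70 genes, only Hsp70Ab was called, and it was lower in abd-A. Hsp68, the most abundant of them, had 506, 486 and 405 CPM with abd-A and 247 and 529 CPM in the controls, and the groups overlap (log2FC 0.26, SE 0.31; edgeR, Benjamini-Hochberg adjusted p = 0.557). CG6000 and lncRNA:CR44097 together overlap 26 exonic bases of Hsp68 on the opposite strand. The direction of Hsp68 depends on the control, with a log2FC of -0.19 without control replicate 1 and of 0.91 without control replicate 2.

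The 6 copies of Hsp70 lie on chromosome 3R, 2 between 11954163 and 11960909 and 4 between 12465453 and 12511461 of dm6. They are near-identical, so that reads shared by several copies cannot be assigned to one, and the value of a single copy is uncertain. Hsp70Ab was the copy with the most counts, at 78.7, 76.6 and 66.8 CPM with abd-A and 146 and 166 CPM in the controls. These groups are apart, and its log2FC of -1.07 (SE 0.22; edgeR, Benjamini-Hochberg adjusted p = 0.00762) was called. The log2FC was -0.98 without control replicate 2, short of 2-fold, and without abd-A replicate 3 the edgeR adjusted p was 0.0567 with Benjamini-Hochberg. CG3281 overlaps 27 exonic bases of Hsp70Ab. Hsp70Bb had 76.2, 47.4 and 44.1 CPM with abd-A and 32.3 and 111 CPM in the controls, with overlap. The remaining copies Hsp70Aa, Hsp70Ba, Hsp70Bbb and Hsp70Bc had at most 28.3 CPM in any library and were not called, with log2FC values of -0.43, -0.55, -2.24 and -0.36.

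When the counts of the 6 copies were added into 1 row of the table, a fit chosen after seeing the data, the sum was 195, 152 and 153 CPM with abd-A and 230.1 and 329 CPM in the controls. All abd-A libraries lay below both controls, and the log2FC was -0.75 (SE 0.24; edgeR, Benjamini-Hochberg adjusted p = 0.0441), which is under the 2-fold threshold. Reads shared by several copies may be missing from this sum too, since the counting mode is not given. The summed fit was not repeated with libraries left out. The noncoding heat shock RNA lncRNA:Hsromega was called lower, at 138 ± 3.22 CPM with abd-A (SD, n = 3), against 616 ± 296 CPM in the controls (SD, n = 2), a log2FC of -2.17 (SE 0.29), or -1.57 without control replicate 2. The gene of the heat shock factor, Hsf, had a log2FC of 0.27 (SE 0.35) and was not called.

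The small heat shock genes of the rule lie within 14.2 kb of chromosome 3L, from 9371511 to 9385694 of dm6. Hsp23 and Hsp26 are cytosolic proteins and Hsp27 is nuclear, and all bind unfolded protein. Hsp26 had 351, 315 and 283 CPM in the abd-A libraries and 251 and 593 CPM in the controls. Hsp23 had 214, 162 and 153 CPM with abd-A and 174 and 706 CPM in the controls. Hsp27 had 211, 172 and 138 CPM with abd-A and 166 and 405 CPM in the controls. Control replicate 1 lay within the range of the abd-A libraries for Hsp23 and Hsp27 and below it for Hsp26, and control replicate 2 lay above every other library for all 3 genes. CR43483 overlaps 49 exonic bases of Hsp27 on the opposite strand. The log2FC values were -0.42, -1.32 and -0.72 for Hsp26, Hsp23 and Hsp27, with SE values of 0.32, 0.46 and 0.35, and none was called (edgeR, Benjamini-Hochberg adjusted p = 0.358, 0.0589 and 0.149).

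These values rest on which control is used. For Hsp23 the log2FC was -2.00 without control replicate 1 and 0.01 without control replicate 2, for Hsp27 -1.22 and 0.06, and for Hsp26 -0.91 and 0.33. Hsp23 and Hsp27 were called lower without control replicate 1, and Hsp23 was called lower in 7 alternatives in all, among them DESeq2's size factors (log2FC -1.45; adjusted p 0.0381 in edgeR with Benjamini-Hochberg), library totals (0.0339) and the DESeq2 Wald test (0.0156). Hsp23 in control replicate 2 was 4.05 times its level in control replicate 1, Hsp26 was 2.36 times and Hsp27 2.43 times, where the median ratio over all genes was 0.998. The fat body markers, at 20326 CPM in control replicate 2 and 2414 CPM in control replicate 1, and the muscle markers, at 3209 and 1541 CPM, differed between the controls in the same direction. So did the neuron markers (367 and 179 CPM) and the midgut markers (13.6 and 1.37 CPM). The testis markers (50.04 and 102 CPM) and the salivary gland markers (7.76 and 22.7 CPM) were lower in control replicate 2 than in control replicate 1. The part of these tissues in the small heat shock genes was not tested. Per kilobase, Hsp23 was 0.698, 0.589 and 0.617 times Hsp26 with abd-A and 0.795 and 1.36 times in the controls, so the order of both genes is turned round in control replicate 2.

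**Figure D4:**
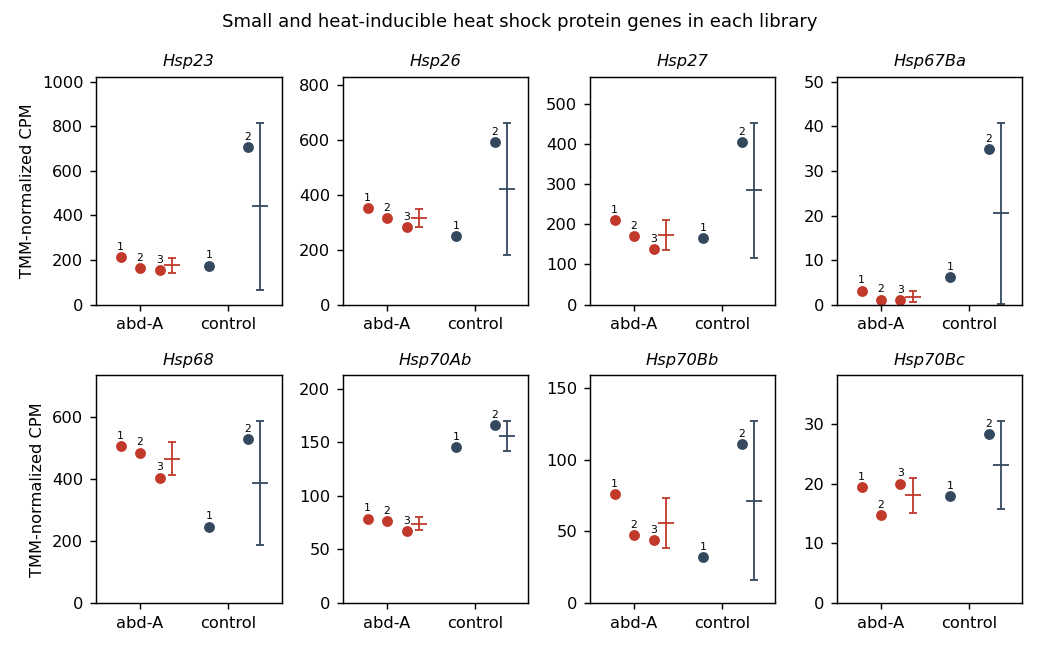
TMM-normalized CPM (y axis, from 0) of 4 small heat shock genes (top) and 4 heat-inducible Hsp70 family genes (bottom) in each abd-A library (left) and control library (right), with replicate numbers, mean and SD. Control replicate 2 is the highest library in each panel, and for Hsp70Ab both controls (146 and 166 CPM) lie above the abd-A libraries (66.8 to 78.7 CPM).

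Hsp67Ba was the small heat shock gene called lower, with 14, 4 and 5 counts with abd-A and 9 and 90 in the controls. Scaled to library size this was 3.13, 1.09 and 1.06 CPM with abd-A and 6.18 and 34.9 CPM in the controls. Both controls lay above every abd-A library, and control replicate 2 stood far above the rest. The log2FC was -3.53 (SE 0.94; edgeR, Benjamini-Hochberg adjusted p = 0.0236), -4.27 without control replicate 1, -4.22 without abd-A replicate 1, and -1.79 without control replicate 2, where it was not called. The call was also lost without abd-A replicate 2 (0.0901) and without abd-A replicate 3 (0.0877; edgeR, Benjamini-Hochberg). asRNA:CR43481 covers 1316 of its 1733 exonic bases on the opposite strand, and with an unstated strand setting of the counting the genes cannot be told apart. Hsp67Bc had 4 to 14 counts with abd-A and 6 in each control and was not called. Hsp22, a mitochondrial small heat shock protein, is listed at 0 in all 5 libraries. All of its 1900 exonic bases are also exons of CG4456 on the same strand, so its 0 cannot be read as absence, and CG4456 had 1, 6 and 0 counts with abd-A and 8 and 12 in the controls. Of 5 other genes with the alpha-crystallin domain of small heat shock proteins, 3 were tested and CG4461 was called lower, with 7, 0 and 4 counts with abd-A and 18 and 49 in the controls. That call was lost with any 1 library left out except control replicate 1.

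The members also differ in gene structure, a property the rule did not use. Genes that respond to heat often lack introns. Of the 32 tested members, 13 had no intron in any annotated transcript, all of them small heat shock or heat-inducible Hsp70 genes except Hsp60B. Of the 13, 2 were called lower and 0 higher in edgeR (also 0 at an unadjusted p under 0.05, and 0 called with DESeq2 or limma-voom), with a median log2FC of -0.58. Of 19 members with introns, 12 were called higher and 1 lower, with a median of 1.32. Among all genes tested with an annotated transcript the medians were -0.90 for 1752 genes without introns and -0.08 for 9813 genes with introns, of which 5.02% and 12.0% were called higher and 15.1% and 12.3% lower. The members without introns were thus called lower, 15.4% of them, at about the share of all genes without introns. With 5.02% of all genes without introns called higher, 0 of 13 members is too few to be told apart from that share. The split by introns also nearly repeats the split by family, since all 8 CCT genes are among the 12 higher members with introns.

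Co-chaperones of Hsp70 and Hsp83 were measured together with Hsf, as 23 genes with a median log2FC of 0.64. Of these, 5 were called higher (3 to 4 with 1 abd-A library left out), where 11.0% of all genes tested were called higher. Called lower were 0 of the 23 genes. DnaJ-H had a log2FC of -0.99 (SE 0.34), or -0.29 without control replicate 1 and -1.48 without control replicate 2. P58IPK, a J-domain protein of the endoplasmic reticulum, had the largest rise, with 169 ± 5.72 CPM with abd-A (SD, n = 3) and 48.5 ± 12.1 CPM in the controls (SD, n = 2), a log2FC of 1.81 (SE 0.26). Droj2, a J-domain protein of the cytosol, had 1.39, and Stip1, which links Hsp70 to Hsp83, had 1.18. The Hsp83 cofactor genes Sgt1 and Sgt had log2FC values of 1.18 and 1.01. Both calls were lost with any 1 abd-A library left out, that of Sgt1 also without control replicate 2 (log2FC 0.95), and that of Sgt without control replicate 1 (0.63). DnaJ-1, the Hsp40 that is induced by heat, was not called, with a log2FC of 0.25 (SE 0.24). Neither was stv, a BAG-domain exchange factor, which had 22.6, 28.6 and 20.9 CPM with abd-A and 0 and 21.7 CPM in the controls.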

How the data were processed

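Values deposited by the authors are unnormalized read counts, 1 row a gene. They come from HTSeq 0.11.2 after STAR 2.5.2 alignment to dm6. The annotation release, strand setting and counting mode are not given in the sources used here. Samples were grouped by their titles, and all 5 libraries entered 1 fit.

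Symbols matched 17709 of 17807 identifiers. Coordinates, exon lengths, introns and overlaps came from the Ensembl 115 annotation in dm6 coordinates. Genes with at least 10 counts in sum were tested with edgeR 4.0.16 in R 4.3.3 (TMM, quasi-likelihood F-test, Benjamini-Hochberg). SE is the absolute log2FC over the root of F. A fold change against a group at or under 3 counts per library was computed against that floor, averaged over the libraries of the group. It uses the mean of the other group. It covers counting error at the floor only, and neither the counting error nor the spread of the other group. No source says that the pools came from separate crosses or cultures, so p-values measure the spread between these pools.

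The members and gene lists were chosen with earlier results of these data known. Every member was accounted for. Values per library are given for members called, for the most abundant of each family and for those whose call changed. Of the names listed, unc-45, betaTub60D and l(2)tid matched no gene. The salivary gland, neuron and midgut marker lists were also measured: of 2, 4 and 4 genes tested, 0, 0 and 2 were called higher and 0, 2 and 0 lower.

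Alternatives were other scalings and filters, DESeq2 1.42.0, limma-voom 3.58.1, a replicate block and each library left out. The fit was tested on simulated data. Promoter motifs and protein ends were not analysed here.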

Additional observations from a re-analysis of the deposited data

How the results depend on the processing

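Of the 32 members tested, 19 kept their call, or stayed uncalled, under each alternative run. The other 13 include Hsc70-4, which passed only with no fold threshold. The 8 CCT genes and Hsp110 were called higher in all of them. The number called higher ranged from 9 to 13 over all alternatives, with 9 under scaling by upper quartile, by library totals or by DESeq2's size factors, under the DESeq2 Wald test and under the replicate block. The number called lower was less stable: 6 with no filter beyond 1 count, 5 with the DESeq2 Wald test and 5 with limma-voom, and from 0 to 5 with each library left out. None of the 3 genes called lower kept the call under all alternatives. With the replicate block 0 members were called lower in edgeR, although 2 were lower at an unadjusted p under 0.05. The titles give replicate numbers to different pools of animals, and no source says that equal numbers mark a pair. The deviations of same-numbered libraries correlated at 0.018 and -0.002 over 11624 genes. With 2 controls these deviations mirror each other, so the values show no pairing but cannot exclude it. The median log2 fold change of the small heat shock genes ranged from -1.28 to 0.012 with each library left out, reaching 0.012 without control replicate 2. The median of the cognate Hsp70 genes was 0.70 with upper-quartile scaling, 0.68 with library totals, 0.73 with size factors of DESeq2, 1.01 with filterByExpr and 0.73 with the DESeq2 Wald test. These 3 scalings moved the median of all genes from -0.17 to between -0.36 and -0.32, and no member changed direction with scaling. In fits with 1 control library, that library is assumed to vary like the others. Depth limits the low members: 3 counts equal 2.06 CPM in control replicate 1.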
